A study of Mus musculus with 12 samples.

Results

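The regions described here were the largest methylation gains found between retinas of Cre- mice and of Tet tcKO mice. They were selected on the measured levels: an autosomal differentially methylated region (DMR) of whole genome bisulfite sequencing (WGBS) was included when its level was at least 40 percentage points higher in Tet tcKO, its Cre- level was at least 20% and it held fewer than 5 CpGs per 100 bp. 2224 regions met these conditions, of 193836 WGBS DMRs in all and 188451 autosomal gains, so that 1.18% of the autosomal gains belong to this set. They covered 1584.9 kb and held 22460 CpGs. The levels, the rise and the CpG density therefore describe how the regions were chosen and are no finding. What follows concerns how the regions differ among themselves, where they lie, which genes and sequences they hold and what bACE-seq measured in them.

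The series holds 12 libraries of whole retina at postnatal day 21 from C57 BL/6J mice, with 3 Cre- and 3 Tet tcKO libraries for WGBS and as many for bACE-seq. Tet tcKO mice carried Chx10::Cre-GFP with Tet1 loxp/loxp, Tet2 loxp/loxp and Tet3 loxp/loxp, and the Cre line was in-crossed to give 2 copies of the transgene because its expression is mosaic. Cre- mice came from separate breeders without the transgene, were age-matched and are labelled WT. Whether they carried floxed alleles is not given in the sources used here. Chx10 drives Cre in retinal progenitors, so the neurons and Müller glia that arise from them are the cells in which the alleles could recombine. The deposited lists gave 1 mean level per group with the 3 libraries pooled and without coverage, so no value below has a replicate error and no difference between groups of regions was tested. In whole retina, a change in the make-up of cell types and a change within cells cannot be told apart, and neither a cell type nor the deletion itself can be checked in lists of DMRs. Tet2 and Tet3 each had 1 region of the set within 5 kb of the gene, and Tet1 had none.

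Methylation of cytosine in CpGs (5mC) is copied to new strands at replication and is removed in part through oxidation by the TET enzymes, TET1, TET2 and TET3. The first oxidised form, 5-hydroxymethylcytosine (5hmC), is abundant in neurons and lies mostly in gene bodies and enhancers. Bisulfite sequencing reads 5mC and 5hmC alike as unconverted, so a WGBS level is their sum. In bACE-seq, a deaminase after bisulfite treatment converts 5mC but not the bisulfite adduct of 5hmC, so that its level is 5hmC together with cytosines that failed to convert. The paper reports that a small share of unmodified cytosines failed to convert. Rods are the most numerous cells of the normal mouse retina and thus weigh most in Cre- levels of whole tissue. For Tet tcKO retinas the paper reports a loss of rods and an increase of cones, so rods do not weigh alike in both groups.

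2 kinds of sequence are shown because the set held both: CpG-rich coding stretches within long regions over photoreceptor genes, and short intronic regions with few CpGs. Each is the plus strand of GRCm38 (mm10) and CpGs are in capitals. The first is the most CpG-rich window without UTR in the region over Prph2, at chr17:46910945-46911244, with 15 CpGs, and it overlaps the coding sequence.
Prph2: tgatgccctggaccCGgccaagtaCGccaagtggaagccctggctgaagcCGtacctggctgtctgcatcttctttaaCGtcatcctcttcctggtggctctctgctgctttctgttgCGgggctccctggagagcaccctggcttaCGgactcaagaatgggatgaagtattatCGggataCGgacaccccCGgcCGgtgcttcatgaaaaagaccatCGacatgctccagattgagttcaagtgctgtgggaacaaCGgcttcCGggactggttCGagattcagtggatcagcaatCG
The equivalent window of Rbp3, chr14:33955329-33955628, holds 19 CpGs and also overlaps the coding sequence.
Rbp3: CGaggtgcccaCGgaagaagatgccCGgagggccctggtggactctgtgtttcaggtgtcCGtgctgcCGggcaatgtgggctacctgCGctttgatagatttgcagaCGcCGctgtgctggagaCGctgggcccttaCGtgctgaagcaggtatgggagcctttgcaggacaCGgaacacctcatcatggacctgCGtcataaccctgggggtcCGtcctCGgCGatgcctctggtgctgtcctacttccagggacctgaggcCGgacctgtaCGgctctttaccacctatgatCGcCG
That of Kcnv2, chr19:27323209-27323508, holds 24 CpGs of the coding sequence.
Kcnv2: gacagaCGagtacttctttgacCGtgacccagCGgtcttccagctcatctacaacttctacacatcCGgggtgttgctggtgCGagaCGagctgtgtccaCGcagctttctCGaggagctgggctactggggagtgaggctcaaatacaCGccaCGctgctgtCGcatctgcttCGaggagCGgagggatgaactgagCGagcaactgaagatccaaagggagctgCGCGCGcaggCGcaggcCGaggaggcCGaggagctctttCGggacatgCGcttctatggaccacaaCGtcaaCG
The region in an intron of Anks1, chr17:27927638-27927880 with the last G included, has 5 CpGs and is among the 5 with the largest rise.
Anks1: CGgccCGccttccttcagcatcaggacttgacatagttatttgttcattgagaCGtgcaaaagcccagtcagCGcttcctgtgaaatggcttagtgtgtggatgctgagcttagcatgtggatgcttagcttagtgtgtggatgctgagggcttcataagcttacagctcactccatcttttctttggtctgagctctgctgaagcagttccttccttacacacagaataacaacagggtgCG
The region in an intron of Wdr72, chr9:74124603-74124771, has 4 CpGs and is another of the 5.
Wdr72: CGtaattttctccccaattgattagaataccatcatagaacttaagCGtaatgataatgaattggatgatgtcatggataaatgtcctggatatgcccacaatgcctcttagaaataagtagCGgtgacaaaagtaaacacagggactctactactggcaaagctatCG

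Most regions were short. The median length was 483 bp and the median number of CpGs was 7, and 421 regions held the smallest number in the list, 4. At the other end, 174 held 20 or more CpGs and 55 were at least 3 kb long, up to 13742 bp with 248 CpGs. Long regions made up 2.47% of the set, 2.25% of the gains that rose by 30 to 40 points under the same other conditions (10190 regions) and 0.380% of all other autosomal gains (186227 regions). The Cre- level had a median of 30.5%, with 10% of the regions under 22.5% and 10% over 39.4%. In Tet tcKO the median was 75.1%, from 67.3% to 82.7% between the same shares of regions. The rise had a median of 43.3 points and reached 64.6 points, and 191 regions rose by 50 points or more. The rise and the number of CpGs had a Spearman correlation of -0.15 across the 2224 regions, which share libraries and are not independent.

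The limit at 40 points cuts through a continuous range. The 5 regions just inside it rose by 40.0018, 40.0042, 40.0065, 40.0076 and 40.0113 points, and the 5 just outside by 39.9959, 39.9957, 39.9938, 39.9937 and 39.9907 points. Among autosomal regions with a rise of 40 points or more (2629), 365 were left out by the Cre- limit and 40 more by the limit on CpG density. Autosomal regions lower by 40 points or more in Tet tcKO numbered 32.

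**Figure D1:**
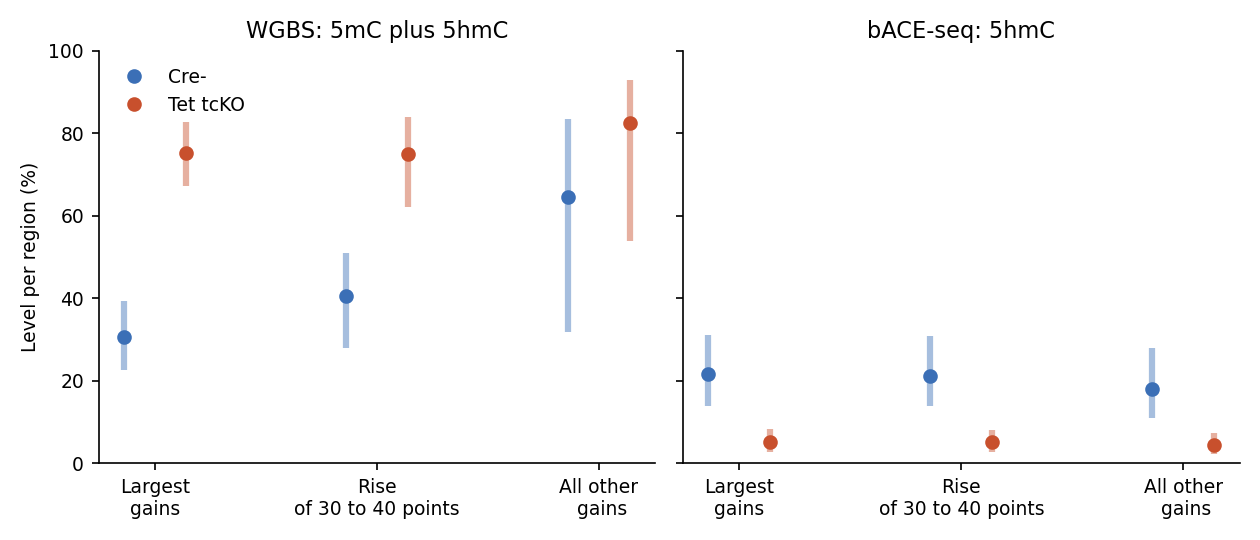
Level per region in WGBS (left, sum of 5mC and 5hmC, in %) and in bACE-seq (right, 5hmC, in %) for the largest gains, for gains of 30 to 40 points and for all other autosomal gains. Points are medians over regions and bars span the 10% to 90% range of regions, not an error; in bACE-seq the Cre- medians of the 3 sets lie between 18.02% and 21.7%, while the Cre- WGBS medians, which the selection used, lie between 30.5% and 64.5%.

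The regions of the set with the strongest area statistic, which adds up the test statistics of all CpGs of a region, lay mostly over genes of photoreceptors. The first and longest covered Prph2, which encodes peripherin-2, a tetraspanin of the outer segment disc rim. It ran from chr17:46910034 to chr17:46923775, from -425 bp to 13316 bp of the start site, and so reached from before the start site into the last exon. Over 248 CpGs the level went from 28.1% to 70.5%. The next covered Rbp3, the interphotoreceptor retinoid-binding protein that carries retinoids between photoreceptors and the pigment epithelium. Its 9562 bp at chr14:33949765-33959326 went from 28.2% to 72.4% over 179 CpGs and reached from -4238 bp to 5323 bp of the start site.

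The third lay on Kcnv2, a modifying subunit of potassium channels of photoreceptors. At chr19:27322333-27329941 the level went from 30.6% to 78.9% over 129 CpGs, and a second region of the set ended at -5062 bp from the start site (31.9% and 73.0%). Pcare, which encodes an actin regulator at the base of the outer segment, held a region of 8084 bp and 165 CpGs at chr17:71745838-71753921 with 29.1% and 70.4%. In Elovl4, a fatty acid elongase that makes very long chain lipids of the outer segment, the region at chr9:83796435-83805117 was wholly intronic, with 30.8% and 71.8% over 124 CpGs. Rp1, which encodes a microtubule protein of the photoreceptor axoneme, had a region of 10324 bp with only 69 CpGs at chr1:4350858-4361181. It rose by 50.1 points, from 22.6% to 72.7%, and a second one of 845 bp in coding sequence rose by 47.5 points.

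The other 3 of the first 10 that are given here lay on genes that are not photoreceptor-specific. Epb41l2, a membrane skeleton protein of the 4.1 family, had 34.0% and 77.6% over 103 CpGs at chr10:25403649-25414260, across its start site. Nlk, a serine/threonine kinase, had 29.6% and 70.5% over 93 CpGs at chr11:78687985-78696885, over exons and introns, with its midpoint 4938 bp from a start site. Arl4d, a small GTPase of the ARF family, had 23.7% and 65.7% over 82 CpGs at chr11:101666031-101670248, from inside the gene into the sequence downstream. Nlk held the most regions of any gene, 6 of its 29 gains. The gains nearest to these 9 regions rose by 20.2 to 47.5 points.

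**Figure D2:**
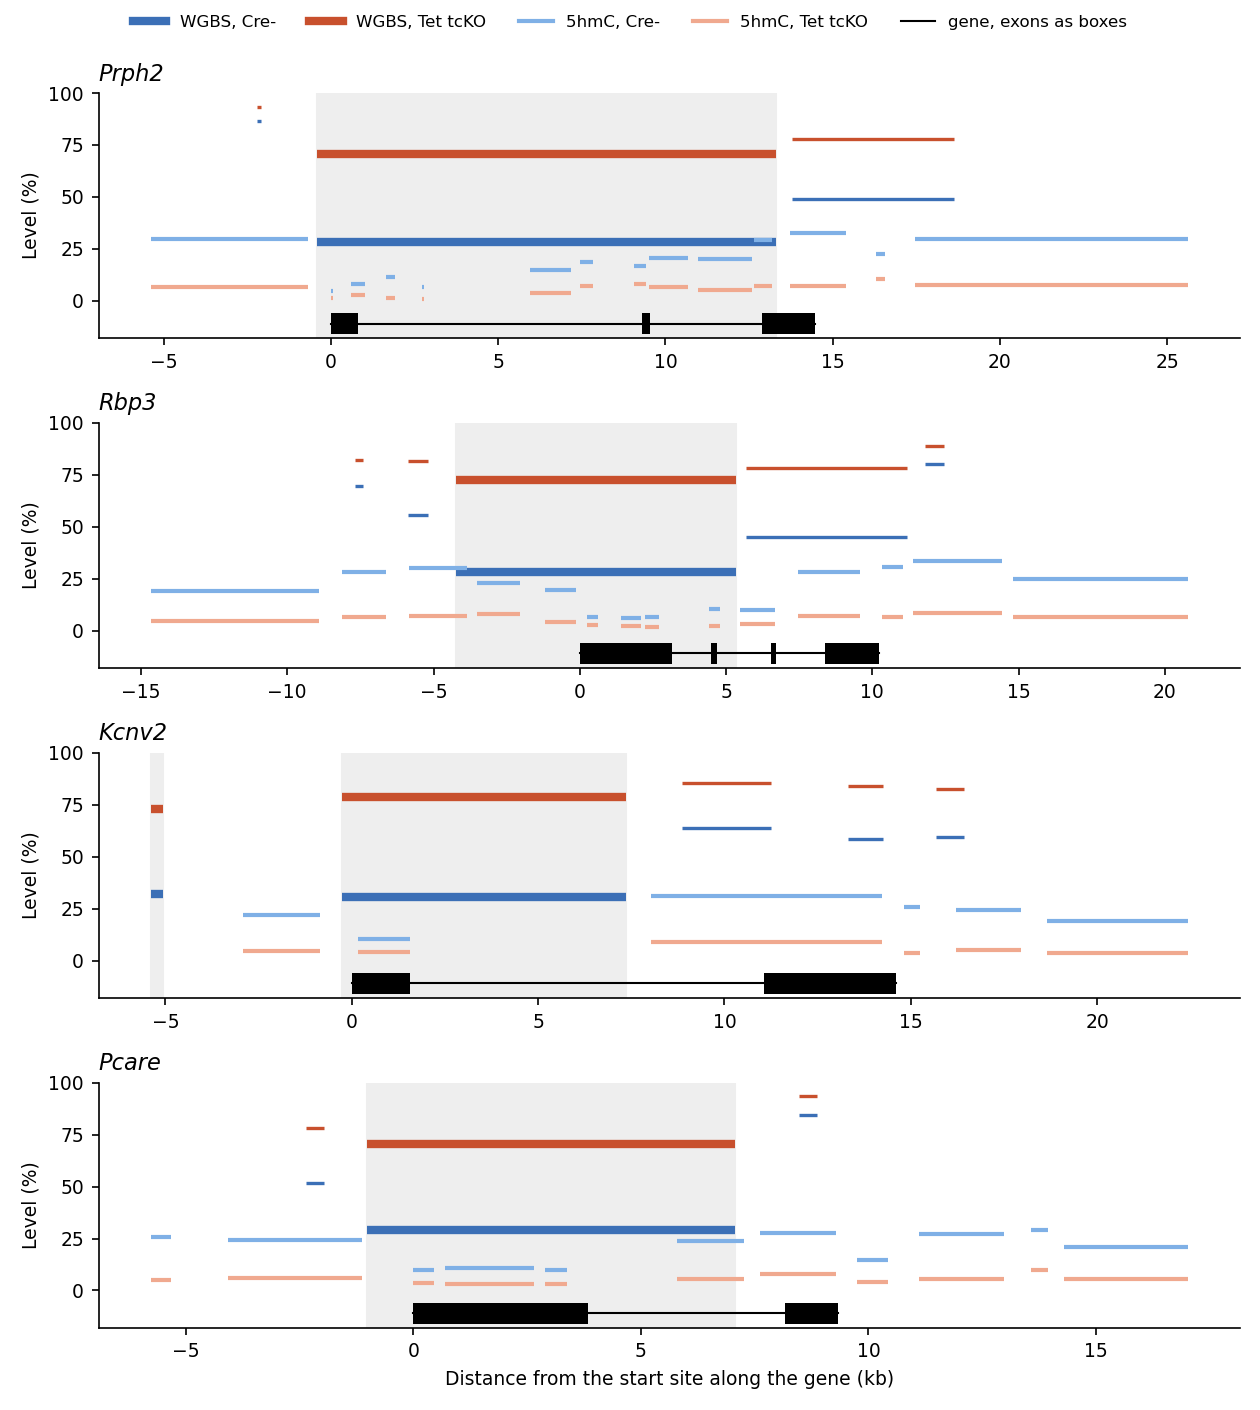
Levels along Prph2, Rbp3, Kcnv2 and Pcare, with the distance from the start site along the gene in kb on the x axis and the level in % on the y axis. Thick lines are the largest gains (shaded), thin dark lines other WGBS gains and pale lines bACE-seq regions, each drawn at its mean level in Cre- and in Tet tcKO, with exons as boxes; within the shaded spans the pale blue 5hmC lines that start in the first 3 kb after the start site sit at 4.52% to 11.3%, and those outside the spans mostly above 20%.

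The 5 regions with the largest rise were of another kind. All 5 held 4 or 5 CpGs, and 4 lay on chromosome 9. The region at chr9:68548067-68548579 went from 25.1% to 89.7%, that at chr9:92966737-92967831 from 22.9% to 84.0% and that at chr9:73458538-73458742 from 28.2% to 88.3%, and all 3 were intergenic. The intronic region of Wdr72 went from 22.5% to 82.8%. None of these 4 overlapped a bACE-seq DMR. The region in Anks1, a scaffold protein, went from 20.2% to 80.1% and was wholly inside a bACE-seq DMR whose 5hmC level went from 25.8% to 5.95%. A region with 4 CpGs holds few cytosines, and their coverage is unknown. The paper called DMRs with smoothing, so such a level may also draw on CpGs nearby.

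5hmC was measured in an assay that the selection did not use. It is still part of the WGBS level, which the selection limited in Cre-, so the overlaps below are not independent of the selection. Of the 2224 regions, 1503 (67.6%) overlapped at least 1 bp of a bACE-seq DMR that was lower in Tet tcKO, and none overlapped one that was higher. Overlap with a higher one was rare in any case, with 15 of the 186227 other autosomal gains. The share with a 5hmC loss was 78.9% of the gains of 30 to 40 points and 81.9% of all other autosomal gains. It depended on size: 50.3% of regions with 4 to 6 CpGs overlapped a 5hmC loss, 70.9% with 7 to 9, 87.7% with 10 to 19 and 94.8% with 20 or more, against 71.2%, 84.1%, 92.2% and 95.6% of the other gains. 902 regions (40.6%) were covered by 5hmC losses over at least 50% of their length, against 68.2% of the other gains. Among the largest gains, the share with a 5hmC loss was 56.0% where the Cre- WGBS level was 20 to 25%, 66.3%, 72.0% and 76.5% in the next 3 ranges of 5 points, and 68.6% in the 194 regions at 40% or more. A bACE-seq DMR is a call of a change, so a region without one may have 5hmC that did not pass the call.

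In the 1503 regions with a bACE-seq DMR, the mean 5hmC level, weighted by the CpGs of those DMRs, was 23.7% in Cre- retinas and 5.92% in those of Tet tcKO, so that 24.9% of the Cre- level was kept. The other gains had 20.5% and 5.21%, with 25.4% kept, and the gains of 30 to 40 points had 23.7% and 5.93%. Per region, the share kept had a median of 24.2% and lay between 16.6% and 30.7% in the middle 80% of regions. In 4 regions it was 50% or more. All DMRs in these regions were called as losses, which limits the share kept. The Cre- and the Tet tcKO 5hmC levels had a Spearman correlation of 0.81 across these 1503 regions, a description of regions that share libraries and depth. Over all autosomal gains with a bACE-seq DMR, the median Cre- 5hmC level was 15.6% where the rise was under 10 points, then 17.8%, 19.9%, 21.1% and 21.5% in steps of 10 points, and 21.2% at 50 points or more.

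In the same regions and with the same weights, WGBS levels were 31.6% and 75.5%. 5hmC thus equalled 75.1% of the Cre- WGBS level, against 58.0% in gains of 30 to 40 points and 32.5% in the other gains, and 7.84% of the Tet tcKO level. The WGBS level was limited by the selection, so the order of these 3 shares is partly fixed by it. The bACE-seq DMRs also reach beyond the regions: where only DMRs with at least 80% of their length inside were kept (325 regions), Cre- 5hmC was 17.3%, close to the 17.0% in other gains treated in the same way, and equalled 57.6% of the WGBS level, against 31.4%.

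Long regions had less 5hmC inside than around them. Over the 55 regions of at least 3 kb, bACE-seq DMRs inside averaged 17.2% (Cre-) and 4.78% (Tet tcKO), and those within 5 kb on either side averaged 26.4% and 6.81%. Of the 45 regions with both, 42 had the lower Cre- value inside (93.3%). Among 509 other gains of at least 3 kb with both, 288 did (56.6%), with means of 24.4% inside and 25.7% outside. The selection limited the Cre- WGBS level, which includes 5hmC, inside the 55 regions but not around them. It set no such limit in the other gains, so these contrasts are partly fixed by it. Levels inside varied along the region. In Rbp3 the bACE-seq DMRs within the first exon had 6.68%, 6.17% and 6.79% 5hmC in Cre-, those upstream of the start site but inside the region 19.7% and 22.9%, and the one across the upstream edge 30.2%, while the first DMR beyond the downstream edge had 9.94%. In Prph2 the DMRs from the start site to 3 kb had 4.52% to 11.3% and those farther along the region 14.9% to 29.2%, and the one that ends at -689 bp, outside it, had 29.6%. Kcnv2 had a single DMR inside, over exon 1, with 10.3% and then 4.26%, and Rp1 a single one over 1.02% of its length with 3.24% and 0.795%. At levels as low as those of Rp1, cytosines that failed to convert may make up much of the value.

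Among regions of at least 20 CpGs, Cre- 5hmC was highest in introns of Usp6nl (39.2%, with 9.44% for Tet tcKO), Ttc8 (38.7% and 8.56%), Slc4a7 (36.2% and 11.8%) and Tnpo1 (35.9% and 9.398%), and across exons and introns of the lncRNA genes Gm44686 and 1810026B05Rik (37.9% and 10.7%). Ttc8 encodes a subunit of the BBSome, which moves proteins in cilia. In all of these but Slc4a7 the 5hmC level of the DMRs exceeded the Cre- WGBS level of the whole region, most in Ttc8 (29.4% by WGBS), and the DMRs covered 16.9% to 86.3% of the lengths of the 5 regions. The lowest Cre- 5hmC was found in Rp1 and then in Rcvrn (8.80%), Ephb1 (9.81%), Kcnv2 and Tmem219 (10.9%). The Cre- WGBS levels of these 10 regions ranged from 20.1% to 40.8%.

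By midpoint, 128 regions (5.76%) lay within 2 kb of a start site of GENCODE M21, 1413 (63.5%) in a gene body and 683 (30.7%) between genes. The other autosomal gains had 10.5%, 57.2% and 32.3%. Midpoints in exons made up 3.82%, against 7.14% of the other gains, so most regions in genes were intronic. 48 regions (2.16%) held a start site, against 1.48%. GC content had a median of 44.2% and marked repeats a median of 10.7% of the length, against 47.9% and 9.38%. Another gain lay within 1 kb of 557 regions (25.05%), against 30.5% of the other gains, and 172 regions (7.73%) had another of the set within 10 kb.

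Of 20780 autosomal protein-coding genes, 1340 (6.45%) had a region of the set within the gene or 5 kb of it. Of 60 genes in 4 photoreceptor lists, 21 (35%) did, and all 60 had a gain of some size, as did 78.5% of all genes. The median length of these genes was 19.7 kb, against 17.6 kb of all, and among the 10939 genes between 8.46 and 70.4 kb, the middle range of the 60, 4.79% had a region. The 35% is over all 60 genes, with genes outside that range such as Rp1 (409.68 kb), Rims2 (486.11 kb) and Rom1 (1.97 kb). The share of photoreceptor genes inside the range was not computed. Within the 828 gains at the 60 genes, 3.74% belonged to the set, against 1.22% of all gains at protein-coding genes. The lists were drawn up with results on these data known, and these counts were not tested.

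**Figure D3:**
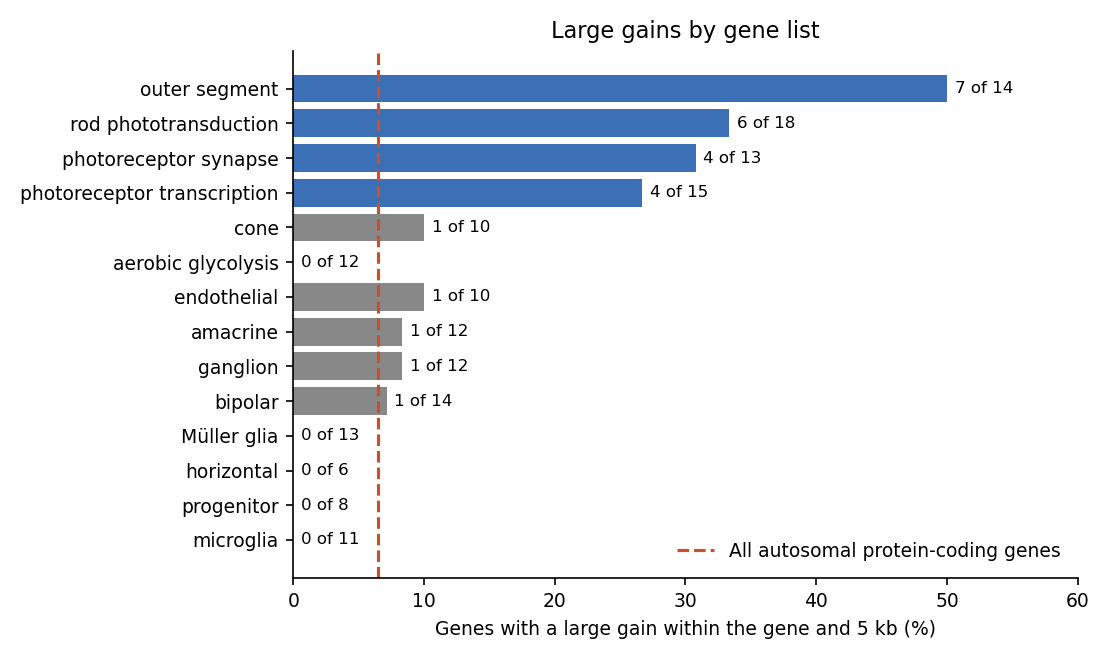
Share of genes (x axis, in %) with at least 1 of the largest gains within the gene or 5 kb of it, for each list of genes (y axis), with counts beside the bars. The dashed line marks 6.45%, the share of all autosomal protein-coding genes; the 4 photoreceptor lists (blue) lie between 26.7% and 50.0% and the other lists (grey) between 0 and 10.0%.

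Outer segment genes had the highest share, 7 of 14. Beside Prph2, Rbp3 and Rp1, these were Impg1, a proteoglycan of the matrix around photoreceptors, Prom1, which shapes nascent discs, Rp1l1, a relative of Rp1, and Rom1, the partner of peripherin-2. Prom1 went from 35.6% to 78.9% over 11 CpGs in an intron and Rp1l1 from 33.9% to 78.3% over 5 CpGs. In Impg1 a region with its midpoint 432 bp from a start site went from 29.1% to 73.1%, and another outside the gene from 37.9% to 87.0%. The region assigned to Rom1 lay in an intron of its neighbour B3gat3 and went from 33.0% to 73.6%.

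Rod phototransduction genes had 6 of 18. Gnb1, the β subunit of transducin that many cells also express, held 4 regions, of which the one across a start site went from 28.0% to 73.8% over 71 CpGs. Gngt1, the rod γ subunit, had 12 CpGs across its start site that went from 23.7% to 79.7%, the largest rise of the list (56.0 points). Rcvrn, the calcium sensor recoverin, went from 31.7% to 72.3% across its start site over 43 CpGs, which also lie in an intron of Glp2r. Pdc, the transducin-binding phosducin, had 3 regions, of 33, 33 and 5 CpGs, that went from 23.7%, 29.6% and 22.5% to 72.2%, 74.2% and 73.1%, none with a bACE-seq DMR. Pde6b and Cnga1, subunits of the rod phosphodiesterase and of the rod cation channel, each had a region of 9 CpGs, which went from 35.8% and 29.5% to 80.2% and 73.5%. Gnat1 had none, and its largest gain was 24.2 points.

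The transcription list had 4 of 15 genes. Crx, the homeodomain factor of photoreceptors, had 23 CpGs over a coding exon and intron that went from 27.7% to 71.5%. Rorb, a nuclear receptor upstream of rod fate, had 4 regions, the largest from 29.4% to 69.8% over 70 CpGs across a start site. Samd7, a rod repressor, went from 32.3% to 72.9% across its start site, and Esrrb, a nuclear receptor of rods, from 36.1% to 81.8% in an intron. Nrl and Nr2e3 had largest gains of 34.7 and 38.5 points, and Otx2 of 25.4 points. The synapse list had 4 of 13: Cplx4, a complexin of ribbon synapses (29.2% and 72.5% over 59 CpGs across its start site), Pclo, the active zone protein piccolo (27.5% and 78.0%), Cacna2d4, a calcium channel subunit (26.2% and 66.7%), and Rims2, an active zone protein (28.3% and 68.6%). Of these 4, Pclo, Cacna2d4 and Rims2 had regions of 19, 17 and 8 CpGs.

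5 genes of these lists had a gain of 40 points or more outside the set, 2 of them beside a region of the set. In Crx a region of 68 CpGs at chr7:15871223-15880036 went from 15.6% to 67.7%, and one of 73 CpGs within 5 kb of Rom1 from 19.8% to 63.8%, both under the Cre- limit. Rdh12, a retinol dehydrogenase, went from 18.7% to 72.0% and Elfn1, a synaptic adhesion protein of rods, from 19.2% to 62.8%, also both under that limit. Prdm1, a repressor of bipolar fate, went from 24.3% to 73.6% over 4 CpGs and had 6.15 CpGs per 100 bp, over the density limit.

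Other lists had few. Of 10 cone genes only Thrb, the thyroid hormone receptor that sets cone opsin choice, had a region, with 2, and their largest gains had a median of 25.1 points, against 38.05 points for the 60 photoreceptor genes. None of the 12 genes of aerobic glycolysis had one, although all 12 had a gain, with a median largest gain of 29.3 points. The lists of the other cell types, bipolar cells, Müller glia, ganglion, amacrine and horizontal cells, progenitors, microglia and endothelium, had 4 of 86 genes (4.65%). These were Prkca (bipolar, 2 regions), Ebf1 (ganglion, 2), Meis2 (amacrine) and Pecam1 (endothelial), each in an intron. The median largest gain at these 86 genes was 23.1 points, and at all protein-coding genes it was 19.9 points.

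Windows of 300 bp at the midpoint were searched for short motifs on both strands. TAATCC, the core bound by the homeodomain factors CRX and OTX2, was found in 636 windows (28.6%), against 23.0% of the gains of 30 to 40 points and 15.1% of all other autosomal gains. The share went up with the rise, from 10.5% in gains under 10 points over 14.4%, 18.7%, 23.1% and 27.7% to 30.5% in gains of 50 points or more. Other motifs had like shares in the set and in the other gains: TGCTGA, a MAF-type site that NRL binds (24.3% and 24.6%), AGGTCA, a nuclear receptor site (18.7% and 19.7%), and the E-boxes CAGATG (27.4% and 26.6%) and CAGCTG (18.8% and 20.4%). 3 further words were added after these values were seen. TAATCT, which differs in the last letter, was found in 27.8% and 15.4%, TAATTA, a core of other homeodomain proteins, in 17.0% and 11.5%, and TTAACC, the letters of TAATCC in another order, in 11.8% and 10.0%. A match is a description of letters and no site of binding.

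**Figure D4:**
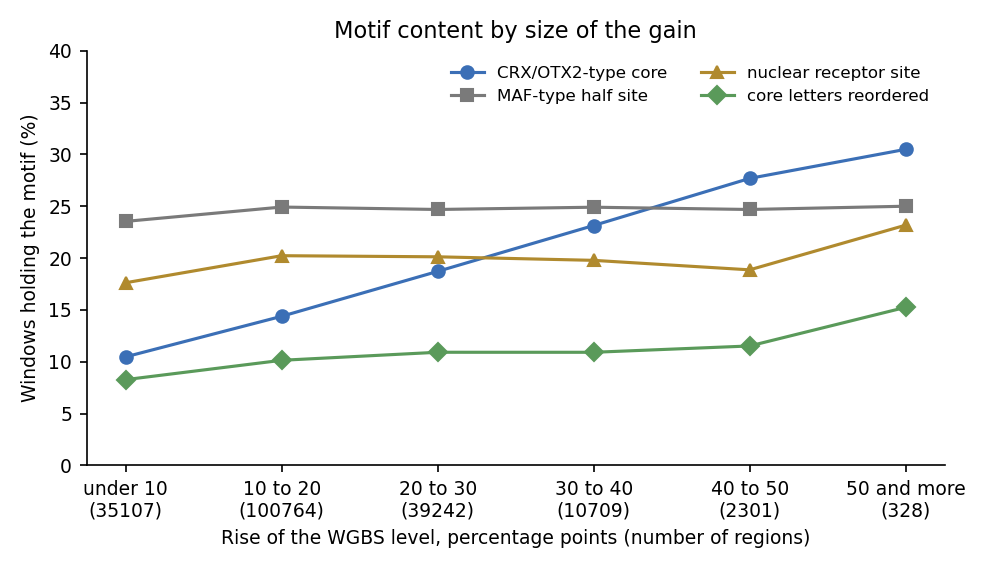
Share of 300 bp windows (y axis, in %) that hold each motif on either strand, by the rise of the WGBS level in percentage points (x axis, with the number of autosomal gains in each range). The CRX/OTX2-type core goes from 10.5% to 30.5%, the MAF-type site stays between 23.5% and 25%, and the reordered letters go from 8.27% to 15.2%. TAATCT, which differs from that core in the last letter and is not drawn, goes from 10.3% to 33.2%, so the climb is not particular to the exact letters TAATCC. Whether the same factors bind TAATCT was not tested.

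Since this core is rich in A and T, windows of like base composition were compared. Where G and C made up 42 to 46% of the window, 31.8% of 573 windows of the set and 18.7% of the other gains held TAATCC, and at 46 to 50% these were 32.9% of 510 and 16.5%. In the same ranges TAATCT was also higher in the set, at 31.9% against 19.3% and at 25.3% against 15.2%, and over all gains it went from 10.3% to 33.2% with the rise. The core of other homeodomain proteins was at 14.8% against 14.8% and at 8.43% against 9.48%. Below 38% G and C, TAATCC was at 22.4% against 17.8% and that other core at 35.9% against 29.8%. At 38 to 42% they were at 29.5% against 18.3% and at 25.3% against 21.0%. At 50 to 55% they were at 24.6% against 12.8% and at 3.62% against 5.35%. From 55%, with 70 windows of the set, they were at 11.4% against 6.24% and at 5.71% against 2.22%. In letters outside marked repeats, TAATCC was found in 24.1% of the set and 11.9% of the other gains. A 5hmC loss was overlapped by 70.6% of regions with it and by 66.4% of those without. At the 60 photoreceptor genes, 7 of 31 regions held it (22.6%). Midpoint windows without UTR that hold it outside repeats are shown for 2 of these genes, with CpGs and the motif in capitals; they were chosen after their values were seen. That of Pdc, chr1:150322108-150322407, has it on the plus strand, with 2 CpGs.
Pdc: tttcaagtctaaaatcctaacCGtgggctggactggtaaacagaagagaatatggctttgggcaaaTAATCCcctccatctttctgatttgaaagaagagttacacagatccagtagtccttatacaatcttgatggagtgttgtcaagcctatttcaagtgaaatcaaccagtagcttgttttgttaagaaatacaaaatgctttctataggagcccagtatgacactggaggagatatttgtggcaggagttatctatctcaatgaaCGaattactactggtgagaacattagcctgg
That of Esrrb, chr12:86456349-86456648, has it on the minus strand, with 7 CpGs.
Esrrb: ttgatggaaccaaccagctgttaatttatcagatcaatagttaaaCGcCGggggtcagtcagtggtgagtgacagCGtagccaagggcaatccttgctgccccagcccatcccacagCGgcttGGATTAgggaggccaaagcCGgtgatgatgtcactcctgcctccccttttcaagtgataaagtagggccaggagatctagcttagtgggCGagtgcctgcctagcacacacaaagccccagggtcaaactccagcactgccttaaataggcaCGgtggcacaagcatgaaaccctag

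The set was spread unevenly over chromosomes. It made up 0.907% to 1.33% of the gains on 18 autosomes and 1.79% on chromosome 9, with 202 of 11296. Of these 202, 97 (48.0%) had no bACE-seq DMR, against 30.9% off chromosome 9, while among all gains of chromosome 9 the share was 19.4%. In 5 Mb bins, the median was 4 regions and the highest 21, on chromosome 11. On chromosome 9, the bins from 50, 70 and 90 Mb held 16, 20 and 17 regions, of which 13, 15 and 14 had no bACE-seq DMR. Other bins of chromosome 9 with as many regions varied in this. Those from 45 and 105 Mb had 5 of 16 and 2 of 17 regions without a bACE-seq DMR. The bin that ends at 70 Mb had 9 of 17. The bin from 80 Mb, with 15 regions, also held 138 WGBS losses, the most of any bin, the next having 53. Without chromosome 9, 69.1% of the set overlapped a 5hmC loss and 20 of the 60 photoreceptor genes had a region. The Cre- mice came from separate breeders, and a difference in chromosome 9 sequence between the groups cannot be told apart from a difference in methylation in these lists. This bears on the levels of all chromosome 9 regions, 4 of the 5 largest rises among them. Sequence differences on other autosomes cannot be told apart either. Bins with many WGBS losses also lay on chromosomes 1, 12 and 18, with up to 53, 48 and 33.

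**Figure D5:**
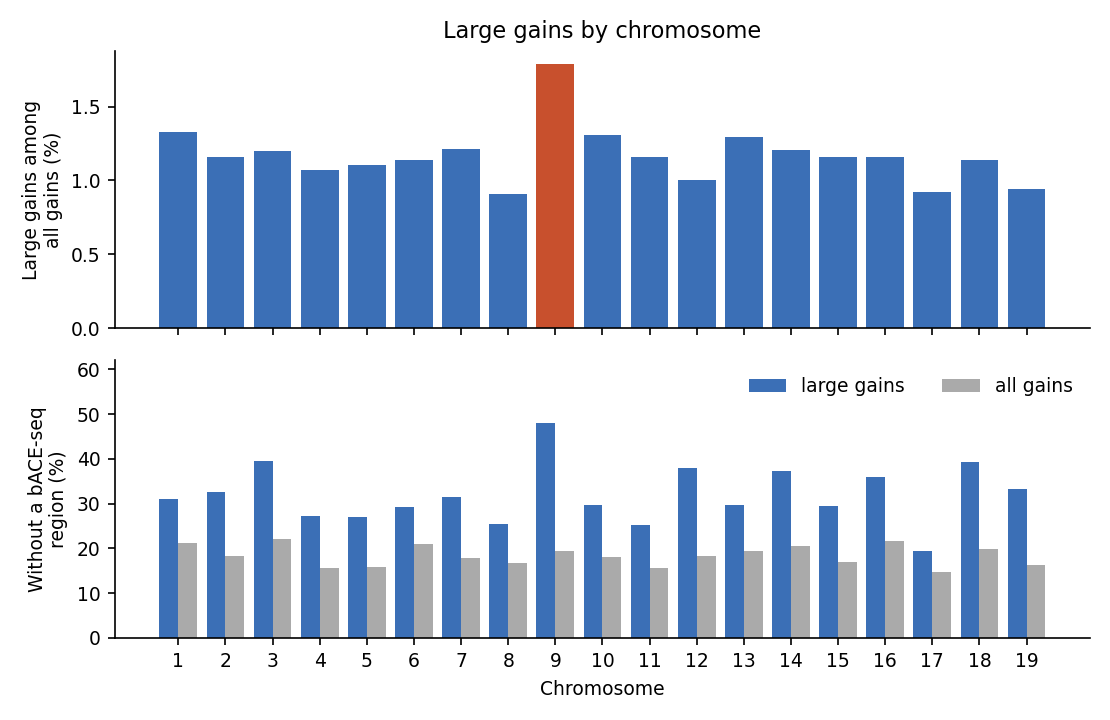
Largest gains as a share of all WGBS gains on each autosome (top, y axis in %) and share of the largest gains and of all gains that overlap no bACE-seq DMR (bottom, y axis in %). Chromosome 9 (orange) stands at 1.79% above the 0.907% to 1.33% of the others, and 48.0% of its largest gains have no bACE-seq DMR.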

How the data were processed

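WGBS and bACE-seq were done on P21 whole retinas, with 3 libraries per genotype and assay. Per the methods of the study and the submitters' processing notes, the authors trimmed reads with Trim Galore 0.4.4, used Bismark 0.18.2 for alignment (mm10), kept reads of mapping quality 10 or more, removed duplicates and counted CpGs with MethylDackel 0.6.1. DMRs were called with DSS, with smoothing, at a p-value of 0.01, with at least 3 CpGs and 50 bp. The deposited lists give the mean level of each group as a fraction, pooled over replicates and without coverage, and the authors' area statistic, a score of their own comparison that was used here only to order regions and is not printed. Depth is unknown, so no interval is given.

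Levels are printed in percent. GENCODE M21 and the GRCm38 RefSeq genome gave genes and sequences, and CpG numbers equalled those of the genome in 99.3% of autosomal gains. Promoters reached 2 kb to either side of a start site, and overlaps were 1 bp or more. Members and gene lists were chosen with earlier results of these data known. The text names the first 10 regions by absolute area statistic, the 5 with the largest rise, the 5 highest and 5 lowest in Cre- 5hmC with 20 CpGs or more, and the regions at list genes. 1 of the first 10 is not reported here. Overlap and selection code was tested on simulated data. No difference between genotypes or sets was tested. Alternatives covered the limits of the selection, weights, windows and flanks. Analyses used Python 3.11.15, pandas 2.3.3 and pysam 0.24.0.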

Additional observations from a re-analysis of the deposited data

Results flagged for a closer look

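The comparison was limited to autosomes. On the X chromosome 5 further regions met the conditions on rise, Cre- level and CpG density. They are a signal in data that the report does not use, and were set apart by their chromosome only.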

How the results depend on the processing

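No paired analysis was possible because the lists give 1 mean per group, with the replicates pooled, and for the same reason no replicate could be left out. 37 alternatives were computed for 9 results, 5 of them chosen after seeing the data, and 15 stayed within the tolerance set for each (1.5 times for counts, the 95% Wilson interval for shares, 1 point for levels). The number of regions became 5571 with a rise of 35 points, 756 with 45 points, 1175 with a Cre- level of 30% and 704 with at least 10 CpGs. The share with a 5hmC loss became 40.6% with 50% cover, 72.7% and 61.6% with a rise of 35 and 45 points, and 89.5% with 10 CpGs, where the other gains had 68.2%, 82.0%, 81.8% and 92.9%. Cre- 5hmC became 22.1% unweighted and 17.3% with DMRs 80% inside, and the share kept became 21.6% with 1 point subtracted from both levels. Promoters of 1 and 5 kb gave promoter shares of 2.61% and 16.1% and gene body shares of 66.1% and 54.99%, and by base pairs the intergenic share was 25.1%. The share of photoreceptor genes became 18.3% with promoter windows alone (all genes 0.664%), 53.3% with 35 points (all genes 13.1%) and 11.7% with 45 points (all genes 2.58%). TAATCC became 21.6% and 37.0% in windows of 200 and 500 bp and 24.1% outside repeats, against 10.8%, 22.0% and 11.9% of the other gains.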

Other observations

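Beside Nlk, genes with several regions included many with no photoreceptor role in the lists. Aff1, Ank2, Atxn1, Dgke, Epb41, Ncam1, Sh3bgrl2 and Zbtb20 each held 4, of 70, 90, 87, 10, 42, 77, 40 and 70 gains. Dgke, a diacylglycerol kinase of 31.7 kb, had the highest share among these, with 4 of 10. Elovl4 held 3 of 7 gains, Rab28, a small GTPase of cilia, 3 of 8 and Rhoa, a GTPase of the cytoskeleton, 3 of 8. These genes were picked by their counts. Of all gains within 5 kb of protein-coding genes, 1.22% belonged to the set. The counts per gene given here leave out that flank, so they do not use the same window. Regions on chromosome 9, as at Elovl4, share the limit given above for that chromosome. Whether the counts per gene differ from those of other genes was not tested.

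The 353 gains that met the other conditions with a Cre- level under 20% had a median of 16.4% in Cre- and 63.1% in Tet tcKO, and 37.7% overlapped a 5hmC loss. 23.2% of their windows held TAATCC and 28.3% TAATCT.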
